A study of Mus musculus with 40 samples.

Results

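The nuclei described here are those that the deposited annotation names ATL, the ascending thin limb of the loop of Henle. They were chosen by that name in the coarser of its 2 columns of class names, which held 30 classes, and the finer column gave the name to the same 300 nuclei. The class made up 300 of 16500 nuclei. Single nuclei had been isolated from cross sections of the right kidney of 4 male C57BL/6 mice aged 8 to 12 weeks, sorted by a DNA stain, and profiled in droplets from the 3′ ends of their polyadenylated RNA. All 4 were taken 24 h after surgery. Sham 1 and sham 2 had a sham operation that left both kidneys in place, and UNx 1 and UNx 2 had unilateral nephrectomy (UNx), the removal of the left kidney, so that the kidney studied was the one that remained. Per the labels, sham 1 and UNx 1 belonged to batch 3, and sham 2 and UNx 2 to batch 4. The ATL class held 76 nuclei of sham 1, 45 of sham 2, 92 of UNx 1 and 87 of UNx 2.

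The ascending thin limb runs through the inner medulla between the descending thin limb, which lets water out, and the thick ascending limb, which pumps salt out. It is known for being tight to water and very permeable to chloride and sodium, which leave it passively. Bsnd encodes barttin, a subunit of chloride channels, and sodium passes between the cells through junctions that hold claudin-10. Its cells live in a salty medium and hold aldose reductase, encoded by Akr1b3, which makes the osmolyte sorbitol.

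The libraries of batch 4 stood apart from those of batch 3 in RNA of other segments. Over 8 proximal tubule genes, the median ATL nucleus held 0.294 UMIs (unique molecules) per 1000 in sham 1 and 0.411 in UNx 1, against 2.33 in sham 2 and 2.53 in UNx 2. Endothelial nuclei of class EC1 showed the same gap, with 0.554 and 0.682 in batch 3 against 3.27 and 3.48 in batch 4. Some ATL nuclei also held far more of another segment's genes than the rest. With a limit of 6 UMIs per 1000 over 8 proximal or over 8 thick limb genes, or of 5 per 1000 for Slc12a3 of the distal convoluted tubule, 26 of the 300 were marked as mixed. This limit was set after the values were seen. The mixed nuclei numbered 1 in sham 1, 8 in sham 2, 3 in UNx 1 and 14 in UNx 2, and their median UMI total was 12101 against 6512 in the others. No doublet caller was run, and whether doublets had been removed is not given in the sources used here. The 4 mice had 520644, 384061, 651334 and 685567 UMIs in this class (sham 1, sham 2, UNx 1 and UNx 2 in this order, which is kept below), and medians of 6714, 6646, 6930 and 6148 per nucleus. Across classes, 18 barcodes occurred in more than 1 mouse, but none was shared by ATL nuclei of different mice.

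**Figure D1:**
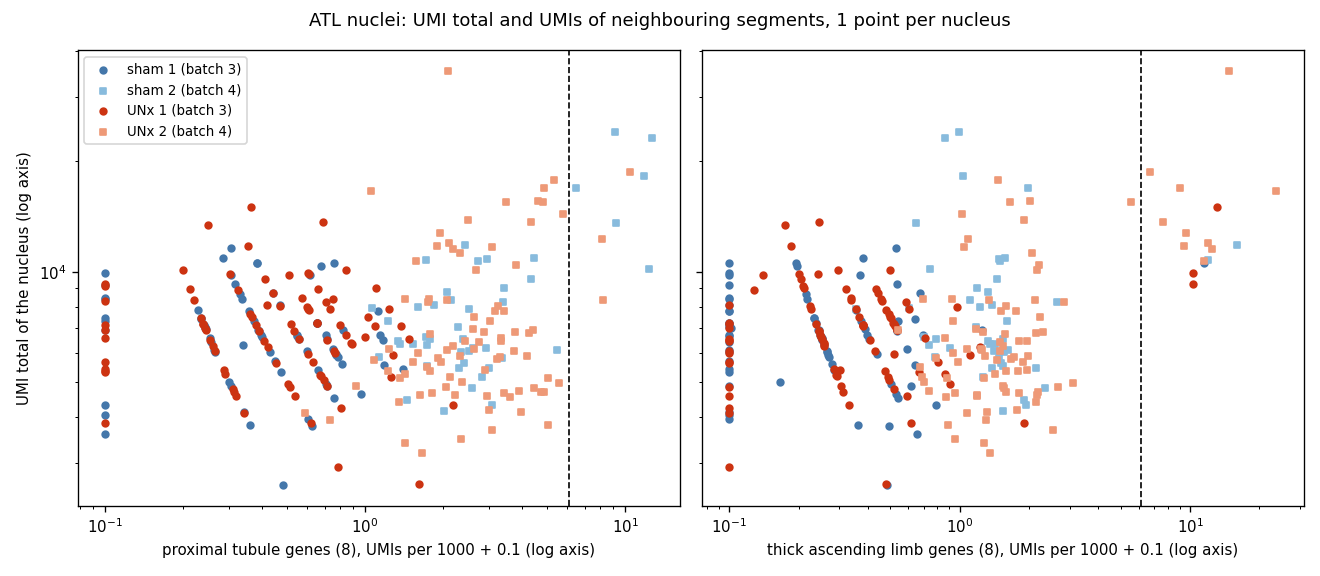
UMI total of each of the 300 ATL nuclei (vertical, log axis) against its UMIs per 1000 over 8 proximal tubule genes (left) and 8 thick ascending limb genes (right), both with 0.1 added on a log axis. Colours and symbols mark the mice, and the dashed line marks the limit of 6 per 1000; the batch 4 mice (squares) lie to the right of the batch 3 mice (circles) in both panels and hold 22 of the 26 mixed nuclei.

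Bsnd, the barttin gene (chromosome 4, 106483456 to 106492283, minus strand, mm10), was far higher in ATL than in the classes around it. Summed over each mouse's ATL nuclei it was at 254, 239, 172 and 215 counts per 1000000 UMIs of the class (CPM). Its next class, type A intercalated cells, reached 67.8 CPM at most, so the mice of the 2 classes did not overlap. The medullary thick ascending limb (MTAL) lay at 22.8 to 40.9 CPM and the thin limb class DTL3-ATL had a mean of 11.0 CPM, both below every ATL value.

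Single nuclei showed the same picture once each was thinned to 3000 UMIs, which left out 3 of the 300 as too shallow. A Bsnd UMI was found in 50.2% of ATL nuclei, against 8.64% in MTAL, 1.59% in DTL3-ATL and 1.72% in EC1, an endothelial class that should lack the gene. Without thinning the ATL share was 73.7%. The median UMI total before thinning was 6667 in ATL nuclei, and 3664 to 7752 by mouse in EC1 nuclei. The shares of the 4 mice ran from 42.2% to 64.4%.

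**Figure D2:**
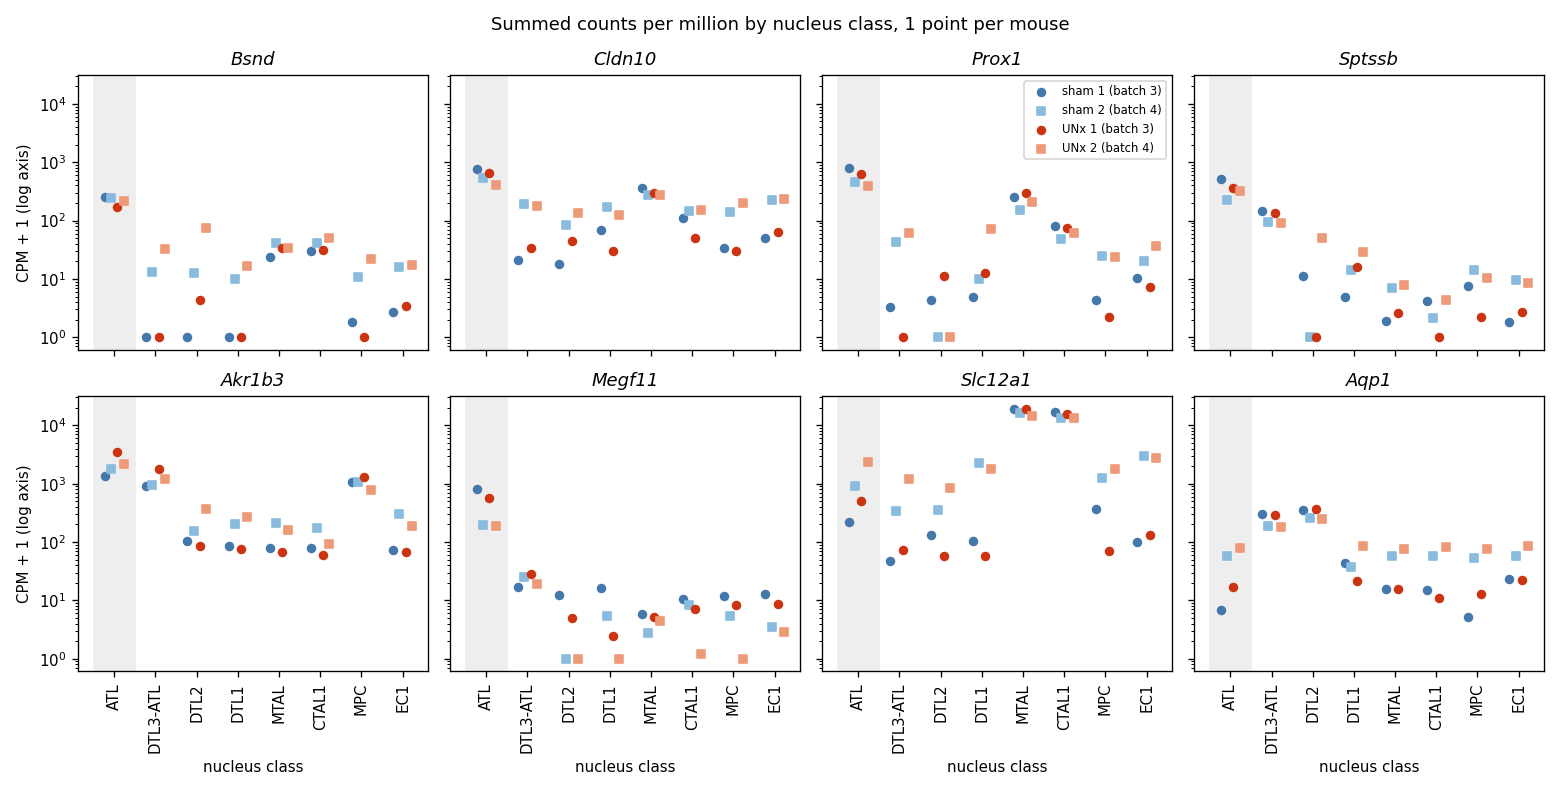
Level of 8 genes (CPM plus 1, log axis) in ATL (grey band) and 7 other nucleus classes, 1 point per mouse and class. Bsnd, Prox1, Sptssb and Megf11 are higher in ATL than in the other classes drawn in all 4 mice, while Aqp1 lies in ATL near its level in the endothelial class EC1; Slc12a1 is far higher in MTAL and CTAL1, at 14695 to 19246 CPM in MTAL.

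Of the paracellular genes, Cldn10 (claudin-10) was at 757, 542, 656 and 411 CPM in ATL. Its mean of 591 CPM was the highest of the 23 classes that held at least 10 nuclei in every mouse, but its range met that of proximal tubule class PTS2, at 387 to 569 CPM. MTAL lay at 273 to 362 CPM. The gene has 2 starts in RefSeq (GRCm38.p6), 67079 bases apart on the plus strand of chromosome 14, and the counts per gene do not say which was used. The 250 bases before the upstream start, chr14:118787621-118787870, are printed because this gene was high both in the loop and in the proximal tubule. They lie outside the gene as GENCODE M21 draws it. Capitals mark the single match to the HNF1 half-site GTTAAT, searched on both strands and found here as its reverse complement ATTAAC.
Cldn10 upstream start: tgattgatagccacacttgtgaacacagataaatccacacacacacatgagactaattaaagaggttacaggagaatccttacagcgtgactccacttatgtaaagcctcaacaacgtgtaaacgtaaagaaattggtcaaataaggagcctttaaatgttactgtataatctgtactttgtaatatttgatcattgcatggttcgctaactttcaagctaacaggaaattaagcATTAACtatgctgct
The 250 bases before the downstream start of Cldn10 held no match. Of all 32851 such windows in the promoter table, 6.43% held GTTAAT on either strand. The match is a description of these letters, not a known site.

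Other tight junction genes divided by segment. Cldn19, which forms cation-permeable pores with Cldn16 in the thick limb, was at 190, 75.5, 163 and 81.7 CPM in ATL, with the highest mean of all classes (128 CPM) but overlapping the 49.3 to 87.5 CPM of the cortical thick limb class CTAL1. Cldn16 itself had a mean of 34.7 CPM in ATL and of 164 CPM in CTAL1. Cldn4, a claudin of the collecting duct that was also listed as an ATL marker, was near 0 at 23.0, 13.0, 13.8 and 5.83 CPM. Cldn12 also had its highest mean in ATL, at 36.9 CPM, but within the range of other classes. In all, 3 of the 19 tight junction genes listed had their highest mean in ATL. Among the 2769 genes with at least 50 CPM in ATL in each mouse it was 286, and Cldn12 was not among these.

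The class was checked against 10 markers listed for it. Cldn10, Prox1, Akr1b3 and Sptssb, 4 of the 10, had their highest mean in ATL. Prox1, a homeobox transcription factor, was at 797, 463, 629 and 394 CPM, all above the 153 to 295 CPM of MTAL. Sptssb, a small subunit of the enzyme that starts sphingolipid synthesis, was at 511, 224, 359 and 317 CPM, above the 42.2 to 207 CPM of the class named Uro and the 89.2 to 145 CPM of DTL3-ATL. Akr1b3 was at 1332, 1801, 3517 and 2172 CPM, and its range overlapped the 927 to 1767 CPM of DTL3-ATL. Cryab, a small heat shock protein, ranked 3 of the 23 classes at 487 CPM. Krt7, at 67.1 CPM, was higher in 4 other classes. Bcas1, Sh3gl3, Krt19 and the remaining marker, Cldn4, whose levels are given above, were at or near 0. Sh3gl3 had no count in any of the 4 mice, which allows up to 5.76, 7.81, 4.61 and 4.38 CPM by counting error alone. Cldn10, Prox1, Akr1b3 and Sptssb fit the label, while Bcas1, Sh3gl3, Krt19 and Cldn4 did not mark these nuclei.

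Markers of other segments mostly had their highest mean elsewhere. Of 12 thick limb markers 1, Cldn19, was highest in ATL, and of 7 pelvic epithelium markers 1, Psca. No listed marker of the proximal tubule, the descending limb, principal cells or intercalated cells was. Slc12a1, the salt carrier of the thick limb, was at 222, 924, 502 and 2346 CPM in ATL against 14695 to 19246 CPM in MTAL. At 3000 UMIs it was found in 14.7%, 62.2%, 21.1% and 78.2% of the mice's ATL nuclei, against 22.9%, 77.2%, 32.8% and 86.9% of their EC1 nuclei, which are not tubular. Slc34a1, the phosphate transporter of the proximal tubule, was found in 24.0%, 88.9%, 28.9% and 94.3% of ATL and 40.6%, 97.5%, 51.1% and 96.3% of EC1 nuclei. Both shares were lower in ATL than in EC1 in each of the 4 mice. Summed Slc12a1, however, was at 100, 3017, 131 and 2738 CPM in EC1. By that measure ATL lay above EC1 in the batch 3 mice and below it in the batch 4 mice. Where this RNA in ATL nuclei came from was not tested. Aqp1, the water channel of the descending limb, was at 5.76, 56.0, 16.1 and 77.6 CPM, and it was found in 2.67%, 4.44%, 5.56% and 18.4% of ATL nuclei, below the EC1 share of each mouse, and in 41.7% of all DTL3-ATL nuclei. Slc14a2, a urea transporter of the descending limb and inner medullary collecting duct, had a mean of 62.9 CPM in ATL, against 57.8 CPM in EC1 and 11413 CPM in medullary principal cells. None of the 9 listed water and urea transport genes was highest in ATL. The summed CPM of 10 proximal tubule markers ran 3432, 13137, 5143 and 12037, and that of 12 thick limb markers 1389, 3545, 1824 and 5418. Both sums were higher in the 2 mice of batch 4.

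A fixed rule then named 12 leading genes, those with the largest ratio of the ATL mean to the next highest class mean, 1 CPM being added to both. It drew on 2769 genes with at least 50 CPM in ATL in each mouse, of which 286 had their highest mean in ATL and 37 were at least 2-fold above the next class. These genes are a description, since the classes were made by clustering the same nuclei, and no test was run on them. Megf11, a cell surface protein with EGF-like repeats, led with 806, 196, 571 and 190 CPM, against 16.2 to 27.0 CPM in DTL3-ATL. Nrip3 followed at 424, 283, 685 and 272 CPM, against at most 60.1 CPM in the class named Per. Kcnh7, a voltage-gated potassium channel of the ERG type, was at 261, 259, 419 and 118 CPM, above the 11.6 to 89.5 CPM of its next class, PEC. All 3 were found in single ATL nuclei at 3000 UMIs far more often than in the neighbouring segments. A Nrip3 UMI was in 57.2% of ATL nuclei, 2.38% of DTL3-ATL and 0.988% of MTAL nuclei. For Megf11 these shares were 38.4%, 3.57% and 0.802%, and for Kcnh7 22.2%, 0.794% and 3.52%.

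The other leading genes were of several kinds. Pdgfa, a growth factor that acts on mesenchymal cells, was at 382, 296, 298 and 328 CPM in ATL and at most 77.1 CPM in DTL1, its next class, and of these 12 it varied least among the mice relative to its mean. Schip1, which binds the tumour suppressor schwannomin, was at 2261, 1206, 2593 and 1601 CPM against at most 470 CPM in PEC. Atp10b, a lipid flippase, was at 1114, 577, 1134 and 563 CPM. Psca, a small membrane-anchored protein also used here as a pelvic epithelium marker, was at 230, 112, 309 and 115 CPM, and the class named Uro reached 63.2 CPM. The other 6 pelvic epithelium markers were not highest in ATL: Trp63, the transcription factor of basal epithelium, was at 53.4 CPM in ATL against 258 CPM in Uro. Hmga2, an architectural chromatin protein, was at 240, 112, 87.6 and 60.4 CPM, against at most 51.1 CPM in CTAL2. Bsnd, Wipf3, Lrrc20 and Ccdc3 completed the 12, with ATL means of 220, 109, 140 and 179 CPM. For 9 of the 12, all but Pdgfa, Bsnd and Hmga2, both batch 3 mice lay above both batch 4 mice. The same share over all genes is not given here, so whether 9 of 12 is unusual cannot be read from it.

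Single members of other gene lists had their highest mean in these nuclei. Of 28 matrix and adhesion genes 4 did, and they were Col4a3, Col4a4, Col4a5 and Col4a6, which encode type IV collagen chains of the basement membrane, while Col4a1 and Col4a2 had their lowest mean of the 23 classes there. Col4a3 was at 2617, 2801, 4766 and 4062 CPM, against 2195 to 3412 CPM in DTL3-ATL, and Col4a6 was at 1225, 701, 1463 and 730 CPM, against 328 to 841 CPM there. Their ranges overlapped those of the next class. Of 27 kidney transcription factors 3, Prox1, Tfap2b and Sim1, were highest in ATL. Among the 2769 genes with at least 50 CPM in each mouse it was 286. Tfap2b, a factor of the distal nephron, was at 549, 528, 686 and 560 CPM, close to the 402 to 499 CPM of MTAL and unlike the mean of 52.4 CPM in DTL3-ATL. Pax2 and Pax8, nephron regulators, went the other way, with means of 2239 and 1168 CPM in ATL, 2264 and 1243 CPM in DTL3-ATL and 654 and 255 CPM in MTAL.

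The osmotic response list, which holds Nfat5 and genes it is known to control, had 17 members. Akr1b3, Hsph1 and Pnpla6 were highest in ATL. Hsph1, a heat shock protein of the HSP110 family, was at 211, 320, 572 and 397 CPM, near the 285 to 347 CPM of medullary principal cells. Nfat5, the transcription factor that senses tonicity, was at 2127, 1115, 1446 and 825 CPM, with higher means in the endothelial class EC2 and in DTL3-ATL. Of the 22 heat shock and unfolded protein genes, Hsp90aa1, Hsf1, Xbp1 and Dnajb9 had their highest mean in ATL, each overlapping the range of its next class.

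Across 7564 genes that reached 50 CPM in at least 1 class, the ATL profile was most like that of DTL3-ATL, with a mean correlation of log2 (CPM + 1) of 0.862 over the 4 mice. It was followed by medullary principal cells at 0.838 and MTAL at 0.823. These are correlations across genes, which are not independent, and the classes of a mouse share a library. The value for DTL3-ATL was 0.837 and 0.855 in batch 3 and 0.859 and 0.898 in batch 4. For endothelial class EC1 it was 0.543 and 0.539 in batch 3 and 0.747 and 0.779 in batch 4, so the profiles of unrelated classes lay closer together in the batch with more RNA of other segments.

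The nuclei also varied among themselves along 1 main axis. It was drawn from 161 nuclei of the batch 3 mice that were not mixed, thinned to 3000 UMIs, over 600 variable genes. The first component held 3.85% of the variance and the second 1.71%. The 20 genes at one end included Akr1b3, Megf11, Galm, Lpin2, Prkd1, Pid1 and Hspa4l, together with Malat1 and Neat1, long RNAs that stay in the nucleus. The 20 at the other end included Pkhd1, the gene of the ciliary protein fibrocystin, with Erbb4, Esrrg, Prox1, Nfat5, Itgb6, Igfbp2 and Tcf7l2. Nuclei high in one set were low in the other, with a correlation across nuclei of -0.83 in the 74 of sham 1 and -0.83 in the 87 of UNx 1, where the genes had been picked. In the batch 4 mice, in which they had not been picked, it was -0.75 across 37 nuclei of sham 2 and -0.44 across 73 of UNx 2. Single genes did not all follow there. At the Akr1b3 end, 16 of 20 genes in sham 2 and 20 in UNx 2 correlated above 0 with the rest of their end. At the Pkhd1 end it was 19 and 19. With the other end, 18 of the 20 genes of the Akr1b3 end correlated below 0 in UNx 2, but Akr1b3 itself did not (0.17). The pattern had been seen in both batches before it was written down, so batch 4 is no independent test. Without Malat1 and Neat1 the 4 values were -0.81, -0.74, -0.83 and -0.45.

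The ends resembled the neighbours of the segment in part. Of the 20 genes at the Akr1b3 end, 19 had a higher mean in DTL3-ATL than in MTAL, while 12 of the 20 at the Pkhd1 end had a higher mean in MTAL. Among all 600 genes used, 64.2% were higher in DTL3-ATL. Akr1b3 itself had means of 2206 CPM in ATL, 1212 in DTL3-ATL and 130 in MTAL. Erbb4, a receptor of the EGF receptor family, had means of 3517 CPM in ATL, 995 in DTL3-ATL and 9026 in MTAL. Others followed neither neighbour: Megf11, Pid1 and Igfbp2 were low in both, with Pid1 at 479 CPM in ATL, 17.5 in DTL3-ATL and 9.75 in MTAL. The median of a nucleus's score, the mean log2 level of the Akr1b3 end minus that of the Pkhd1 end, was 0.59, 0.20, 0.85 and 0.58 in the 4 mice. It was higher in UNx than in sham within each batch, but UNx 2 lay just under sham 1, so the groups overlapped. Malat1 took a median of 16.7%, 6.97%, 12.2% and 4.63% of UMIs, and its part in these scores was not tested.

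**Figure D3:**
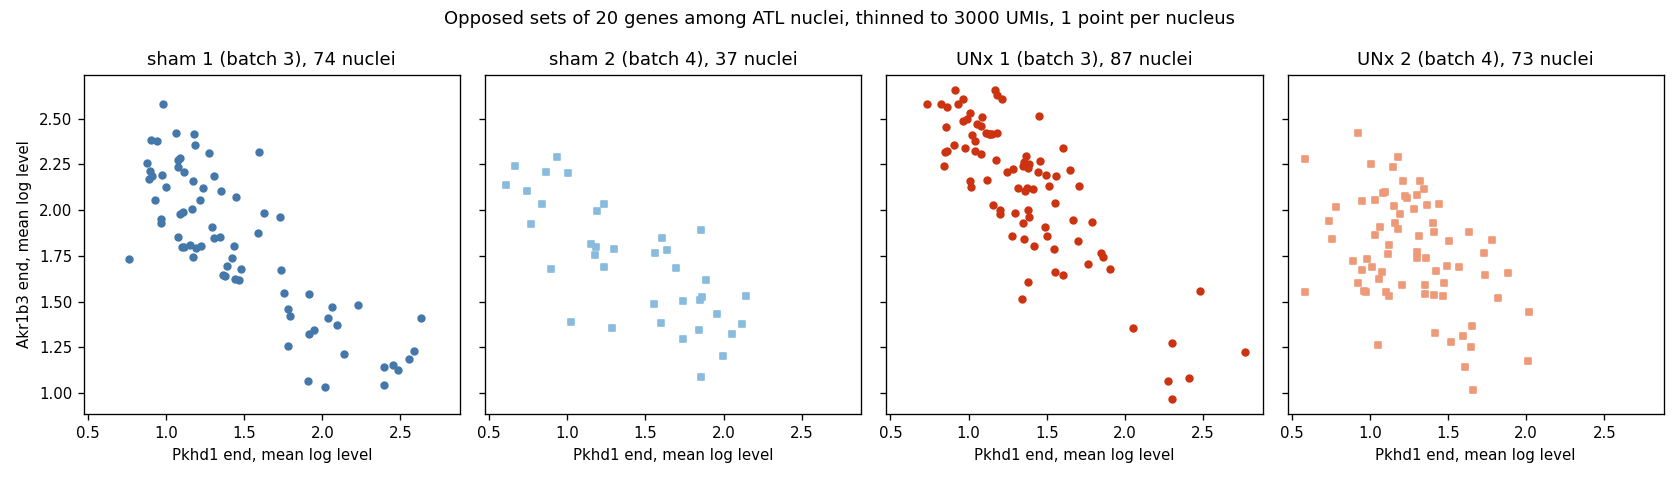
Mean log2 level of the 20 genes of the Akr1b3 end (vertical) against that of the 20 genes of the Pkhd1 end (horizontal), 1 point per ATL nucleus that was not mixed, 1 panel per mouse. Nuclei high on one axis are low on the other in each panel, with the slackest relation in UNx 2 (correlation of -0.44 across 73 nuclei).

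The share of ATL nuclei was 1.42% of all nuclei in sham 1 (95% exact Clopper-Pearson interval 1.12% to 1.78%), 1.70% in sham 2 (1.25% to 2.27%), 1.79% in UNx 1 (1.44% to 2.19%) and 2.58% in UNx 2 (2.08% to 3.18%). These intervals cover counting error only. Both UNx mice lay above both sham mice, with means of 2.19% ± 0.565 (SD, n = 2) and 1.56% ± 0.199 (SD, n = 2). The exact permutation test of 2 against 2 mice cannot go under a two-sided p of 0.333, and gave that value. With the mixed ATL nuclei left out, the shares of all nuclei were 1.40%, 1.40%, 1.73% and 2.17%. A further share took as its base the loop of Henle classes DTL1, DTL2, DTL3-ATL, ATL and MTAL, without the cortical thick limb classes. Its values were 9.62%, 15.1%, 11.1% and 16.0%, so that the groups overlapped and the batches did not. In each batch the UNx mouse was higher by this measure too. More nuclei of a class in a kidney and more recovered from the section cannot be told apart.

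No gene passed the test between UNx and sham in ATL nuclei. Of 8287 genes tested on the summed counts with edgeR's quasi-likelihood test, 0 (0.0%) had a Benjamini-Hochberg adjusted p under 0.05, and 76 (0.917%) had an unadjusted p under 0.05. DESeq2 and limma's voom also called 0, with 15 and 54 genes at an unadjusted p under 0.05. Both UNx mice lay above both sham mice for 969 genes (11.7%) and below both for 942 (11.4%). The batches differed by a median of 0.50 on the log2 scale within a group, and UNx and sham by a median of 0.33 within a batch. The p-values and SEs rest on the spread between the mice within each group. This fit had no batch term and each group held both batches, so that spread includes the batch difference.

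The 12 genes named next were taken by lowest p among those with a mean of at least 50 CPM and with no overlap between the groups, 6 in each direction. Their lack of overlap is therefore the rule, not a finding, and the adjusted p by edgeR was 1.00 for each. Sema5a, an axon guidance and adhesion protein, was at 59.1 and 70.0 CPM in sham and at 140 and 149 CPM in UNx, a log2 difference of 1.16 ± 0.31 (SE). Parva, which ties integrins to actin, was at 137 and 162 CPM against 267 and 288 CPM (0.91 ± 0.28). Ahnak, a large scaffold protein at the cell membrane, was at 36.5 and 39.4 CPM against 75.2 and 98.5 CPM (1.22 ± 0.37). Within the batches the log2 difference of Sema5a was 1.23 in batch 3 and 1.08 in batch 4 (1 CPM added). Pik3c2b, a lipid kinase, was at 69.1 and 65.1 CPM against 149 and 132 CPM (1.06 ± 0.31). Agfg2 was at 115 and 73.4 CPM against 289 and 172 CPM (1.28 ± 0.42). Rbfox1, a splicing factor best known from neurons, was at 7.92 and 25.8 CPM against 105 and 86.9 CPM (2.57 ± 0.59), but 46.1% of its UMIs in the class came from 1 nucleus of UNx 1, and only 35 of the 300 nuclei held any.

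Among the 6 lower in UNx, Hmga2 was also one of the 12 leading genes of the class. It was at 240 and 112 CPM in sham and at 87.6 and 60.4 CPM in UNx, a log2 difference of -1.26 ± 0.49 (SE). Kifc3, a kinesin motor that anchors cell junctions, was at 466 and 398 CPM against 260 and 253 CPM (-0.75 ± 0.28), and it was also among the 20 genes of the Pkhd1 end. Nfs1, the desulfurase that feeds iron-sulfur cluster assembly, was at 81.7 and 70.3 CPM against 26.2 and 37.5 CPM (-1.24 ± 0.40). Hps5, part of a complex that builds lysosome-related organelles, was at 118 and 135 CPM against 73.7 and 63.9 CPM (-0.87 ± 0.31). Spindoc was at 136 and 148 CPM against 86.0 and 72.9 CPM (-0.83 ± 0.30), and Bcap31, a chaperone of the endoplasmic reticulum, at 56.2 and 84.9 CPM against 36.8 and 30.6 CPM (-1.05 ± 0.40).

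The genes that define the class showed no change past the test. Of its 10 markers 6 were tested, with 0 called in either direction and a median log2 difference of -0.08, against -0.01 for all genes tested. Akr1b3 had the lowest p of the list. At 3517 and 2172 CPM it was higher in both UNx mice than the 1332 and 1801 CPM of sham (log2 difference 0.87 ± 0.41 SE, unadjusted p = 0.0823, adjusted p by edgeR 1.00). Of 20 genes of chloride and sodium transport 17 were tested and 0 called, with 7 above 0 and a median of -0.02. Slc12a2, the basolateral chloride importer, had the lowest p, at 82.6 and 97.3 CPM in sham and 152 and 117 CPM in UNx (0.60 ± 0.32). The 12 tight junction genes tested (0 called, median -0.15) were led by Cldn16, at 57.6, 31.2, 23.0 and 26.8 CPM. The 3 water and urea genes tested (0 called, median 0.65) were Aqp1, Aqp2 and Slc14a2, and Slc14a2, with the lowest p, ran 24.4, 59.7, 6.24 and 161 CPM.

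Of all list members, the osmotic and heat shock gene Hsph1 had the lowest p. Of the 17 osmotic response genes 12 were tested and 0 called, 7 of them above 0, with a median of 0.13. Hsph1 was at 211 and 320 CPM in sham and 572 and 397 CPM in UNx (log2 difference 0.88 ± 0.35 SE, unadjusted p = 0.0511, adjusted p by edgeR 1.00). Akr1b3, Hsph1 and Slc6a12, the betaine carrier, were the 3 of these 12 in which both UNx mice lay above both sham mice, against 11.7% of all genes tested. Slc5a3, the inositol carrier, was the 1 in which both lay below (log2 difference -0.56 ± 0.43 SE), against 11.4% of all genes. For Akr1b3 and Hsph1 the difference was larger in batch 3 (1.40 for Akr1b3 and 1.44 for Hsph1 on the log2 scale) than in batch 4 (0.27 and 0.31). Akr1b3 and Hspa4l are also among the 20 genes of the Akr1b3 end of the nuclear axis. Among 17 tested heat shock and unfolded protein genes (0 called, median 0.08), Hspb1, a small heat shock protein, had the lowest p, at 28.8 and 24.7 CPM in sham and 12.9 and 10.2 CPM in UNx (-1.27 ± 0.56).

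Of the 24 kidney transcription factors tested 0 were called, 14 were above 0 and the median was 0.11. Pax8 had the lowest p, at 726 and 1016 CPM in sham and 1662 and 1267 CPM in UNx (0.76 ± 0.34). Prox1 was lower in the UNx mouse of each batch but overlapped between the groups. Of 22 tested matrix and adhesion genes 0 were called, with 12 above 0 and a median of 0.12. Col4a3 had the lowest p, at 2617 and 2801 CPM against 4766 and 4062 CPM (0.71 ± 0.37). Of 10 tested cytokine and STAT5 genes 0 were called (median -0.02), and Lifr, the receptor of leukaemia inhibitory factor, was at 94.1 and 85.9 CPM against 184 and 130 CPM (0.80 ± 0.33). The receptor list (21 tested, 0 called, median -0.05) was led by Casr, the calcium-sensing receptor of the thick limb, which had 0 counts in sham 1 (up to 5.76 CPM by counting error) and 13.0, 23.0 and 47.0 CPM in the other mice. Casr also had the lowest p of the 11 tested thick limb markers (0 called, median 0.54). Mixed nuclei over the thick limb limit numbered 1, 2, 3 and 10 in the 4 mice, and this median was not taken without them.

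Growth and metabolism lists showed no call either. Among 26 genes of DNA replication and mitosis, 1 was expressed enough to be tested: Hells, a chromatin remodeller, at 3.84, 20.8, 24.6 and 14.6 CPM. The 13 tested G1 cyclin, inhibitor and growth genes had a median of -0.20, with Cdkn1b, a cyclin-dependent kinase inhibitor, at 44.2, 31.2, 27.6 and 24.8 CPM. The 7 tested injury and repair genes had a median of -0.38, with S100a6 at 141, 162, 205 and 210 CPM. The 6 tested immediate early genes had a median of -0.20, with Fosl2 at 28.8, 31.2, 56.8 and 37.9 CPM. For cholesterol synthesis (11 tested, median 0.34), Hmgcs1 was at 74.9, 121, 93.7 and 206 CPM, and for fatty acid oxidation (18 tested, median 0.10), Eci1 was at 32.7, 49.5, 56.0 and 65.9 CPM. Among 12 tested clock genes 3 were above 0 and the median was -0.27. Cry2, a repressor of the clock, was at 58.6 and 78.1 CPM in sham and 39.9 and 39.4 CPM in UNx (-0.75 ± 0.37, SE). Per1 led the 11 tested glucocorticoid response genes (median 0.07), Pdk1 the 15 of hypoxia (median 0.07) and Adora1 the 2 of purine and prostaglandin signalling (median -0.36), none of them called.

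The 13 mitochondrially encoded genes all had a log2 difference above 0, with a median of 0.67 and 0 called. Their summed level was 7368, 55864, 11013 and 78712 CPM. The batches differed far more than the groups, and the groups overlapped. In sorted nuclei this RNA comes from outside the nucleus, and its sum was high in the same 2 mice as the proximal tubule genes. The marker lists of other cell types had 0 called as well. The descending limb markers (3 tested, median 0.65) were led by Slc14a2 and the 10 proximal tubule markers (median -0.25) by Slc5a12. For the principal cell (3 tested, median -0.39), pelvic (2 tested, median 0.06), endothelial (5 tested, median 0.14), macrophage (1 tested, median -0.07) and red blood cell markers (4 tested, median -0.26) the lowest p was that of Fxyd4, Psca, Emcn, Cd74 and Hba-a2. No intercalated cell, fibroblast or podocyte marker was expressed enough to be tested.

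**Figure D4:**
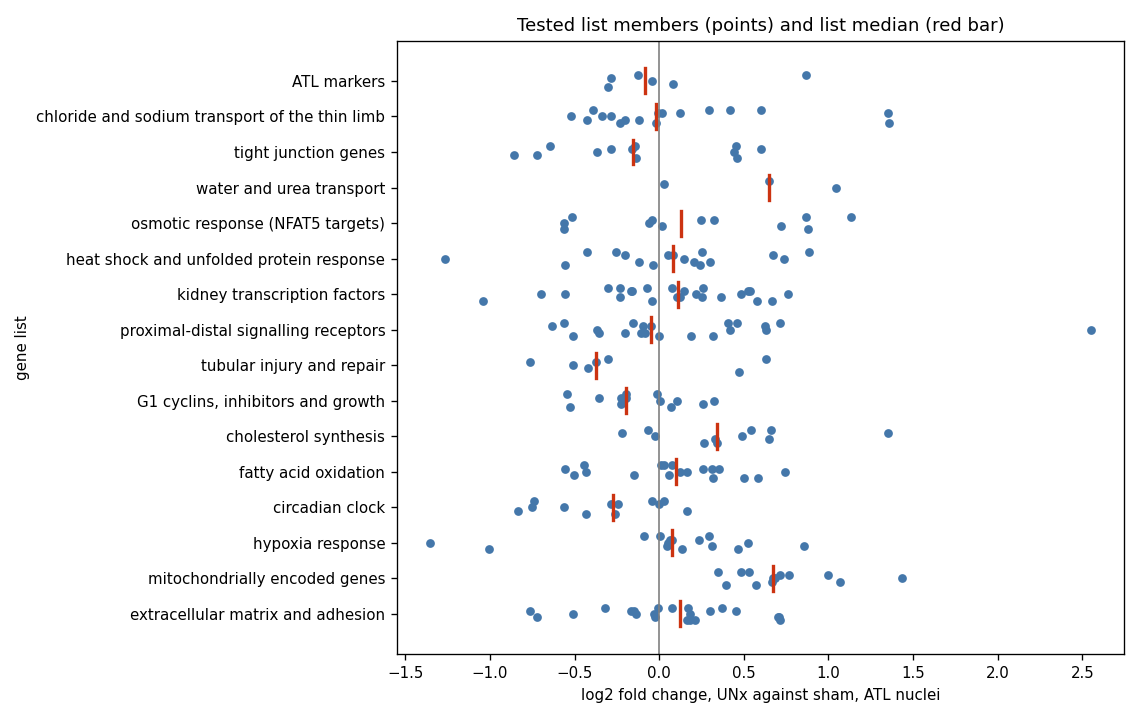
Log2 difference between UNx and sham in ATL nuclei for the tested members of 16 gene lists (points, spread vertically only to separate them) with each list's median (red bar). The medians lie near 0 for most lists, the largest, 0.67 and 0.65, belonging to the mitochondrially encoded and the water and urea genes, and no member was called.

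Whether the difference between UNx and sham in ATL was unlike that in the adjoining classes was tested as an interaction. Against DTL3-ATL, 0 of 8781 genes (0.0%) had an adjusted p under 0.05 by edgeR and 263 (3.0%) an unadjusted p under 0.05. This count did not stay at 0 when 1 mouse was left out, whichever of the 4 it was, and the cause was not tested. Cdh4, a cadherin, had the lowest p among genes more positive in ATL. It was at 1.92 and 5.21 CPM in sham and 39.9 and 27.2 CPM in UNx ATL nuclei, and at 105, 131, 112 and 60.9 CPM in DTL3-ATL (difference 3.64 ± 0.68 SE, adjusted p by edgeR 0.995). Only 35 of the ATL nuclei held a Cdh4 UMI. Erbb4 had the lowest p in the other direction. It was at 4236, 3039, 4025 and 2769 CPM in ATL, where the groups overlapped, and at 775, 750, 1445 and 1010 CPM in DTL3-ATL, where both UNx mice were higher (difference -0.82 ± 0.19 SE, adjusted p by edgeR 1.00). Without sham 2 both passed the adjusted threshold, and without UNx 1 Cdh4 did.

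Against MTAL, 0 of 11872 genes (0.0%) were called by edgeR and 278 (2.34%) had an unadjusted p under 0.05. The lowest p in the 2 directions belonged to Rbfox1 (difference 2.18 ± 0.48 SE), whose UMIs came mostly from few nuclei, and Gpc4, a cell surface proteoglycan. Gpc4 was at 175 and 270 CPM in sham and 93.7 and 132 CPM in UNx ATL nuclei, and at 97.2, 167, 134 and 211 CPM in MTAL (difference -1.37 ± 0.30 SE, adjusted p by edgeR 1.00). In ATL both UNx mice lay below both sham mice, and in MTAL the UNx mouse of each batch lay above its sham mouse.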

How the data were processed

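Members and gene lists were chosen with earlier results of these data known, and a few listed genes are not reported here. The authors deposited estimated counts of unique molecules per gene and nucleus, not normalized (13.9% of the values above 0 are not whole numbers, within 1e-06), and a table of class names. Per the submitters' processing notes, alevin, Seurat and the build mm10 were used; versions, filters and the clustering method are not stated by the labels. Bulk libraries were not used.

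Expected counts were summed per mouse and class, rounded, and tested with edgeR 4.0.16 (limma 3.58.1, R 4.3.3; quasi-likelihood, filterByExpr, TMM factors of 0.981 to 1.02). Adjusted p under 0.05 was called. Interactions held a term for each mouse. CPM is per 1000000 UMIs of the class sum, without TMM. DESeq2 1.42.0 was an alternative. The labels tie replicate number to batch, and same-numbered mice deviated together (correlation 0.666 over 8287 genes). Named genes were, per direction, the 6 of lowest p with at least 50 CPM and no overlap, each list's member of lowest p, the interaction genes of lowest p, and 12 leading genes. The fits were tested on simulated data.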

Additional observations from a re-analysis of the deposited data

How the results depend on the processing

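The count of genes between UNx and sham in ATL nuclei was 0 in the fit reported and under each alternative run: DESeq2 size factors, no filter on low counts, DESeq2, limma's voom, no mitochondrially encoded genes, nuclei of the middle UMI range, each mouse left out, and, chosen after seeing the data, mixed nuclei left out with and without the batch term. With the replicate number as a block, which here is the batch, it stayed at 0, with 528 genes at an unadjusted p under 0.05 against 76, and the block changed no call. The interaction counts moved from 0 to 6 against DTL3-ATL and to 6 against MTAL with no filter on low counts, and to 7 to 23 against DTL3-ATL with 1 mouse left out, where the lone mouse of a group is assumed to vary like the others. With no filter, Cdh4, Erbb4 and Rbfox1 were among the calls. The difference in ATL share, 0.622 percentage points of all nuclei, was 0.223 to 1.02 points with 1 mouse left out. It was 1.20 points of loop of Henle nuclei, cortical thick limb classes not included. Leaving out 1 mouse turned the sign of genes that were not called, with log2 differences from -2.40 to 1.27 for Slc5a12, -1.97 to 0.34 for Fxyd4, -0.56 to 0.96 for Psca, -0.74 to 0.50 for Cd74, -2.04 to 1.55 for Hba-a2, -2.73 to 1.99 for Slc14a2, -0.046 to 2.29 for Hells, -0.0625 to 1.12 for Hmgcs1 and -0.95 to 0.0823 for Adora1. Voom turned Cd74 to 0.0175 and Slc14a2 to -0.16. The cause of these changes was not tested. The limits are 2 mice per group and 384061 to 685567 UMIs per mouse for the class.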
